A study of Mus musculus with 22 samples.

Results

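The T cell receptor alpha variable (Trav) segments were read from the gene count table as every row whose symbol starts with Trav and a number, which gave 130 rows of 55011, in 23 families by the number before the dash. The 22 Smart-seq libraries hold RNA of CD4+ T cells that were sorted on day 50 from lymph nodes of scurfy mice, which lack functional Foxp3. In the FOXP3 group (5 codes), CD4+ T cells from lymph nodes of 10-day-old scurfy donors carried a vector with human FOXP3 and were sorted as LNGFR+. In the WT Treg group (3 codes), the transferred cells were CD4+CD25+ CD45.1+ cells, sorted on CD45.1. In the LNGFR group (3 codes), scurfy donor CD4+ T cells carried the empty vector with the LNGFR reporter and were sorted as LNGFR+. In every group the recipients were scurfy mice that received cyclophosphamide (50 mg/kg) when 10 days old, the cells on day 14, and human IL-2 at 1000 IU per g, daily over 5 days and weekly thereafter. The strain label is C57BL/6 and the genotype label scurfy for every sample, the WT Treg included. Sample titles carry codes (F1, G2 and so on), each shared by 2 libraries of 1000 sorted cells. Whether a code stands for a mouse, a pool or a culture, and what its letter marks, is not stated. All FOXP3 codes start with F or N and all LNGFR codes with G, as does WT Treg code G4, so the vector and whatever the letters mark cannot be told apart. The 2 libraries of a code were summed as 1 replicate, and p-values measure only the spread between codes, which may in part be technical.

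Each alpha chain is encoded by 1 variable segment joined to 1 joining (Traj) segment and spliced to the constant region gene Trac, a rearrangement that is made in the thymus and passed on to every daughter cell. The share of receptor transcripts that carries each variable segment is called usage. It is broad in a polyclonal population and narrow where few clones make up most of the cells. The middle of the mouse locus holds duplicated stretches, and segments from the copies carry the letter d or n in their names. Segments with dv in the name can also be used by the delta chain of gamma delta T cells.

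The reads were 38 bases long, so how well a segment can be told from others depends on how much of its sequence no other gene shares. Of the 130 members, 128 matched a gene of GENCODE M21 by symbol (all but Trav13-5 and Trav7d-6), 108 annotated as genes and 20 as pseudogenes, all on the plus strand of chromosome 14 of GRCm38 between 52427928 and 53977678. The last 120 bases of the segments on which the results turn follow as GENCODE M21 gives them, 5′ to 3′ and ending where the segment joins, with 1 base left off the end of Trav9-4, Trav9n-4, Trav11 and Trav11n so that copies line up. Capitals mark bases covered by at least 1 stretch of 38 bases that is in no other gene's transcripts. Trav17 (chromosome 14, 53806639 to 53807115) is shown because it dominated 1 code, Trav12-3 (53621657 to 53622245) and Trav9-4 (53676141 to 53676630) because each was the leading segment of another, and the Trav11 copies because Trav11 encodes part of the invariant chain of NKT cells.
Trav17: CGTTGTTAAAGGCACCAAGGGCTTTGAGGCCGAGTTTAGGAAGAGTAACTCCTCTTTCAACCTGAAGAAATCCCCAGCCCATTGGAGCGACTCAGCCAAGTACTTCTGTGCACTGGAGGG
Trav12-3: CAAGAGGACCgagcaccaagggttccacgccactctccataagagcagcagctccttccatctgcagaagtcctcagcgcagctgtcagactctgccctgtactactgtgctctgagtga
Trav12d-3: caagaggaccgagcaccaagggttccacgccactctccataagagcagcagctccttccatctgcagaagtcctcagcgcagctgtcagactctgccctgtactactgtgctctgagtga
Trav12n-3: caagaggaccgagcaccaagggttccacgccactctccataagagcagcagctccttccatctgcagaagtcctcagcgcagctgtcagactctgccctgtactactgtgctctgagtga
Trav9-4: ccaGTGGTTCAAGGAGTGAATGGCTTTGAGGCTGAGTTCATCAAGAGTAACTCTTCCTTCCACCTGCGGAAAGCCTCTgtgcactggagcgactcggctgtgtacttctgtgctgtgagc
Trav9n-4: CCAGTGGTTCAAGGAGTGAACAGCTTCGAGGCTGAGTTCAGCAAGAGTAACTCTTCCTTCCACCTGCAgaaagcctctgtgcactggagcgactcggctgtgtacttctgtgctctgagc
Trav11: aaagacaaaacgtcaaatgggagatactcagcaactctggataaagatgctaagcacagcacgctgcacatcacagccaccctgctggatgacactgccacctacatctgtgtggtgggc
Trav11d: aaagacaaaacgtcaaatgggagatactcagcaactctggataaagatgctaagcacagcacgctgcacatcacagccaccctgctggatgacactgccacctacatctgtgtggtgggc
Trav11n: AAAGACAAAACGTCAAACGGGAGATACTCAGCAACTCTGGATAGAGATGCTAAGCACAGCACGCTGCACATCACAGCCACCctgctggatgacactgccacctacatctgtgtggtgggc
Every base of Trav17 was unique, whereas the last 120 bases of Trav12-3, Trav12d-3 and Trav12n-3 differed at 0 positions. Trav9-4 and Trav9n-4 differed at 6 of the 120, Trav11 and Trav11d at 0 and Trav11 and the pseudogene Trav11n at 2.

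The counts followed this uniqueness. Of the 130 members, 81 had at least 1 count in the 22 libraries and 49 had none, 55 had at least 50 counts and 26 had 1 to 49, and all members together held 16614 counts. Among the 42 segments with no unique stretch of 38 bases, 40 were at 0 and the other 2 had 1 count each. Among the 81 segments with at least 5% of their stretches unique, 77 had counts and 4 were at 0. Across the 128 matched segments, which share libraries and sequence, the number of unique stretches and the counts had a Spearman correlation of 0.75. The 56 members with no copy letter held 87.0% of the counts, the 40 D copies 4.77% and the 34 N copies 8.23%, and the median share of unique stretches was 54.3% with no letter and 0% in D and N copies. Trav12-3 thus had 742 counts while Trav12d-3 and Trav12n-3, identical to it over the bases shown, had 0. How reads that match several copies were counted is not given in the sources used here, so results compare the same segment between samples, and a segment at 0 is not shown to be unused. Pseudogenes held 200 counts in all, 1.20% of the total, with 0.668% ± 0.266 (SD) of a code's Trav counts in FOXP3 (n = 5), 2.88% ± 2.94 in WT Treg (n = 3) and 2.56% ± 1.33 in LNGFR (n = 3). The FOXP3 codes (0.359% to 0.994%) lay below the LNGFR codes (1.55% to 4.06%) and overlapped the WT Treg codes (0.878% to 6.25%). One pseudogene, Trav8-2, held 96 of the 200 counts. Without it the share was 0.0512% to 0.719% in FOXP3, 0.541% to 3.13% in WT Treg and 0.477% to 1.78% in LNGFR, and all 3 groups overlapped.

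**Figure D1:**
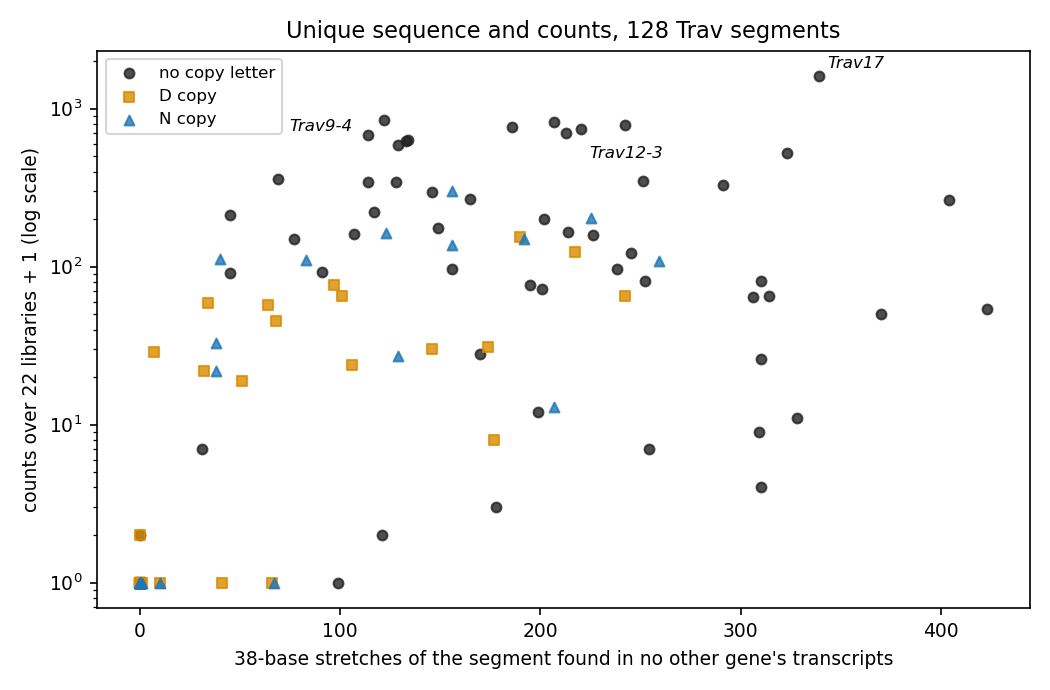
Each point is 1 of 128 Trav segments; the horizontal axis gives the number of its 38-base stretches found in no other gene's transcripts, and the vertical axis its counts over the 22 libraries plus 1, on a log scale. Most segments without a unique stretch sit at 0 counts, and Trav17, with 339 unique stretches, has the most counts (1609).

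Library totals ran from 332570 to 5453375 counts, of which 421 to 1269 fell on Trav segments in 19 libraries. The 3 others were both libraries of WT Treg code E2, with 57 and 39 Trav counts, and the second of LNGFR code G1, with 26. Repeat-derived gene models (4 of them) took 58.2%, 49.5% and 28.9% of the counts of these 3, against 2.19% to 4.47% elsewhere. The FOXP3 codes held 0.931 to 1.18 Trav counts per sorted cell, the WT Treg codes 0.048 to 0.74 and the LNGFR codes 0.419 to 0.828. By counting error alone, a segment at 0 counts may hold up to 3.13% of the Trav counts of E2 and up to 0.127% to 0.358% of those of any other code (3 counts of the total). This limit does not cover segments without unique sequence, whose reads may have been lost or counted elsewhere. Cd4 stood at 123 to 766 counts per 1e6 of a code's total and, of the 2 CD8 T-cell markers, Cd8a at 0 to 3.46. The other, Cd8b1, stood at 4.13 to 9.54 in the FOXP3 codes, at 4.33, 35.1 and 26.4 in E2, G4 and L1, and at 9.14 to 15.2 in the LNGFR codes. The B-cell marker list, 6 genes, summed to 5071 per 1e6 in FOXP3 code N3, 1433 in LNGFR code G1 and 87.5 to 572 in the other 9 codes.

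All Trav segments together made up 222 ± 36.2 of every 1e6 counts in FOXP3 (SD, n = 5), 164 ± 70.3 in WT Treg (n = 3) and 227 ± 37.1 in LNGFR (n = 3). The codes were 249, 188, 204, 198 and 271 for F1, F2, F5, N2 and N3, then 83.1, 200 and 209 for E2, G4 and L1, and 270 (G1), 201 (G2) and 210 (G3). The 3 groups overlapped, and E2 alone stood low. Without E2 the WT Treg mean was 205 ± 5.89 (n = 2). Repeat-derived models took 58.2% and 49.5% of the counts of the E2 libraries and are part of their totals. Every E2 value per 1e6 of its total, here and below, is lower for it, so the E2 value is not read as a lack of Trav transcripts. The ratio of Trav to Trac counts, which compares variable and constant parts within a code, was 0.508 in N3, 0.278 to 0.338 in the other FOXP3 codes, 0.596, 0.274 and 0.307 in E2, G4 and L1, and 0.305 to 0.355 in the LNGFR codes. Trac itself averaged 630 ± 106 CPM (counts per 1e6 of the TMM-scaled code) in FOXP3, 514 ± 265 CPM in WT Treg and 689 ± 195 CPM in LNGFR. The lower WT Treg mean came from E2, at 210 CPM, while G4 and L1 stood at 696 and 636 CPM. No Trac difference passed edgeR's quasi-likelihood test (adjusted p = 0.917 for FOXP3 and LNGFR, 0.673 for WT Treg and LNGFR, 0.744 for FOXP3 and WT Treg).

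Usage was broad in 10 of the 11 codes, and 1 FOXP3 code was dominated by 1 segment. Evenness was taken as the exponential of the Shannon entropy of the shares, which is the number of equally used segments that would give the same entropy. It was 34.9, 30.2, 37.1, 39.8 and 12.1 segments in FOXP3 codes F1, F2, F5, N2 and N3. The WT Treg codes had 32.4 (E2), 32.7 (G4) and 37.3 (L1), and the LNGFR codes 36.4 (G1), 42.4 (G2) and 31.4 (G3). Few counts hold this number down, and E2 had 96 Trav counts against 838 to 2365 in the other codes, so its value is not directly comparable. The groups overlapped throughout, with means of 30.8 ± 11.1 segments in FOXP3 (n = 5), 34.1 ± 2.72 in WT Treg (n = 3) and 36.7 ± 5.51 in LNGFR (n = 3). Without N3 the FOXP3 mean was 35.5 ± 4.06 segments (n = 4). The number of segments with a count was 62 to 68 in the FOXP3 codes, 40, 67 and 62 in E2, G4 and L1, and 58 to 68 in the LNGFR codes.

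**Figure D2:**
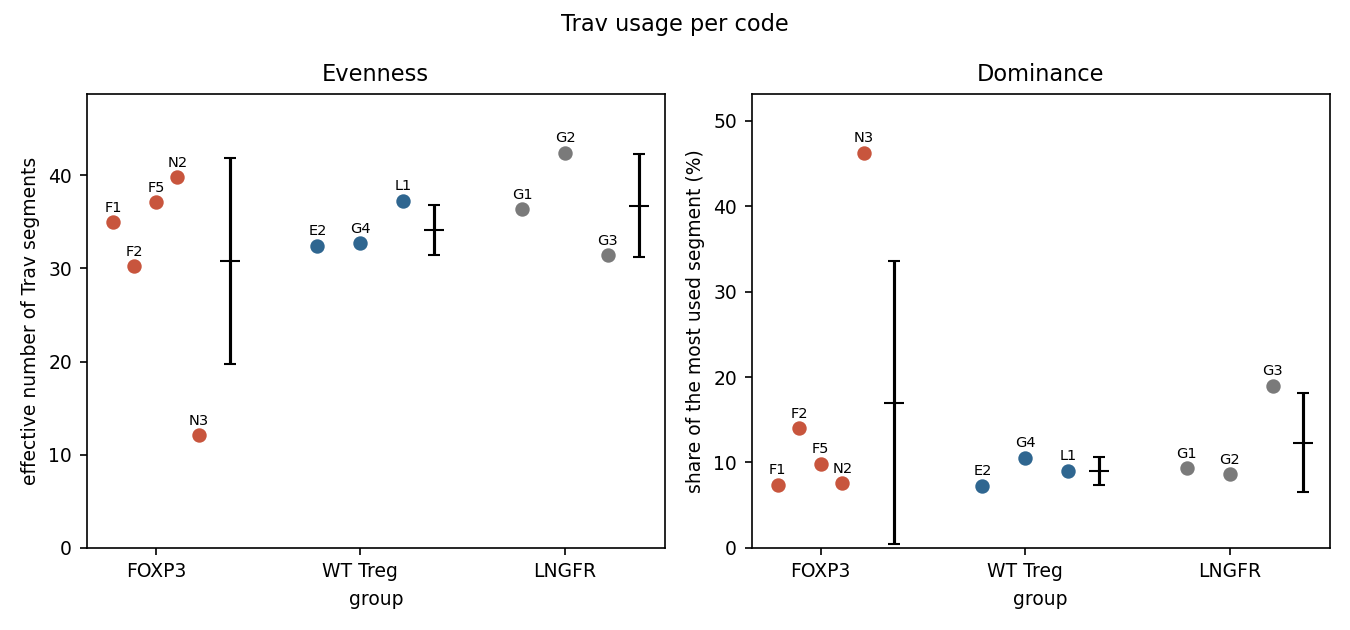
Left, effective number of Trav segments per code; right, share of a code's Trav counts on its most used segment, in percent. Points are codes (2 libraries summed) and bars the mean ± SD of the group; N3 stands apart from the other 4 FOXP3 codes in both (12.1 segments and 46.3%).

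Dominance, the share of the most used segment, averaged 17.0% ± 16.6 in FOXP3 (n = 5), 8.97% ± 1.64 in WT Treg (n = 3) and 12.3% ± 5.78 in LNGFR (n = 3), and 9.70% ± 3.10 in FOXP3 without N3 (n = 4). By counts, the leading segments were mostly different from code to code. In FOXP3 they were Trav3-3 and Trav9-2 tied in F1 (7.40% each), Trav9-4 in F2 (14.0%), Trav7-5 in F5 (9.83%), and Trav17 in N2 (7.54%) and N3 (46.3%). In WT Treg they were Trav4-4-dv10 in G4 (10.6%), Trav6-7-dv9 in L1 (9.05%), and in E2 Trav6-2 and Trav7n-4 tied at 7 counts (7.29%, 95% Wilson interval 3.58% to 14.3%). In LNGFR they were Trav7-5 in G1 (9.31%), Trav21-dv12 in G2 (8.64%) and Trav12-3 in G3 (19.0%). Trav7-5 led in F5 and G1, and Trav17 in N2 and N3, while every other leading segment led in 1 code. Which segment led also depended on how the counts were weighted. Per unique stretch, a weighting chosen after the data were seen, the leader was the same in 5 of the 11 codes (F2, N3, G4, L1 and G3). It was another segment in the other 6, namely Trav7-4 in F1 and N2, Trav4-4-dv10 in F5, Trav13-4-dv7 in E2, Trav10n in G1 and Trav13-1 in G2. This weighting took in the 81 segments with at least 20 unique stretches. It treats each read of a pair alone and takes reads that match several segments as not counted, which is not known. The 5 most used segments together held 28.6% to 67.8% of the Trav counts of a FOXP3 code, 30.3% to 40.9% in WT Treg and 27.9% to 40.0% in LNGFR.

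Trav17 held 46.3% of the Trav counts of N3, against 4.13% in F1, 3.74% in F2, 1.13% in F5 and 7.54% in N2. It held 1.04%, 2.60% and 4.26% in WT Treg codes E2, G4 and L1, and 1.31%, 2.54% and 3.32% in LNGFR codes G1, G2 and G3. Only N3 was above 7.54%, and the groups overlapped. Both libraries of N3 showed it, with 581 of 1215 counts (47.8%, 95% Wilson interval 45.0% to 50.6%) and 513 of 1150 (44.6%, 41.8% to 47.5%). The fitted log2 fold change of FOXP3 was 2.57 ± 1.1 (SE) over LNGFR (edgeR adjusted p = 0.443) and 2.41 ± 1.12 over WT Treg (adjusted p = 0.309). Without N3 these were 0.73 (adjusted p = 0.660) and 0.62 (adjusted p = 0.652).

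In N3, Trav14-3 was the second segment, with 9.60% (12.0% and 7.04% in its 2 libraries), and the rest of its Trav counts spread over an effective 28.6 segments once Trav17 was set aside. The other codes had 32.2 to 43.8 segments without their own leading segment. The ratio of Trav to Trac counts was higher in N3 (0.508) than in the other FOXP3 codes (0.278 to 0.338). Trac was lowest of the FOXP3 codes in N3, at 534 counts per 1e6 of its total, against 603 to 818. Whether the Trav17 counts came from transcripts joined to Trac was not tested. Other receptor parts of N3 had no share as large as that of Trav17. The leading beta variable segment in N3 was Trbv19, at 21.6% of Trbv counts, and in the other codes the leading Trbv segment held 12.0% to 25.2%. The leading joining segment in N3 was Traj33, at 9.17% of Traj counts, and elsewhere it held 5.41% to 14.8%. Traj usage hardly told codes apart, as the most similar library was the other one of its code for 3 of 18. Whether a single alpha chain led in N3 was not tested. B-cell markers were highest in the same code, as given above. They were next highest in G1, where Trav17 stood at 1.31%. Their part in the Trav17 share was not tested.

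Because Trav17 is unique over its whole length, its share was also taken by that weighting, in which each segment's counts are divided by its number of unique stretches. Trav17 then held 26.7% of weighted usage in N3, and 0.441% to 3.35% in the other codes, the highest of them N2. The effective number of segments by that weight was 20.5 in N3, 28.6 to 39.6 in the other FOXP3 codes, 29.0 to 37.2 in WT Treg and 35.4 to 42.5 in LNGFR.

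Less extreme peaks occurred in FOXP3 and LNGFR codes, and in WT Treg only in E2, on few counts. A code's peak was taken, after the data were seen, as a segment with at least 5% of its Trav counts and at least 2 times the share in any other code, which gave 7 peaks in 5 codes. They included Trav9-4 in F2, with 141 and 133 counts or 14.0% and 14.1% in its 2 libraries, where the next code, G2, had 4.49%. In G3, Trav12-3 had 168 and 146 counts or 20.5% and 17.5%, and the next code, F2, had 5.38%. Trav21-dv12 in G2 had 65 and 37 counts or 8.55% and 8.79%, and the next code, G1, had 4.18%. The others were Trav17 and Trav14-3 in N3, and Trav6-2 and Trav7n-4 in E2, which rest on 7 counts each. Outside E2, each peak was present in both libraries of its code.

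**Figure D3:**
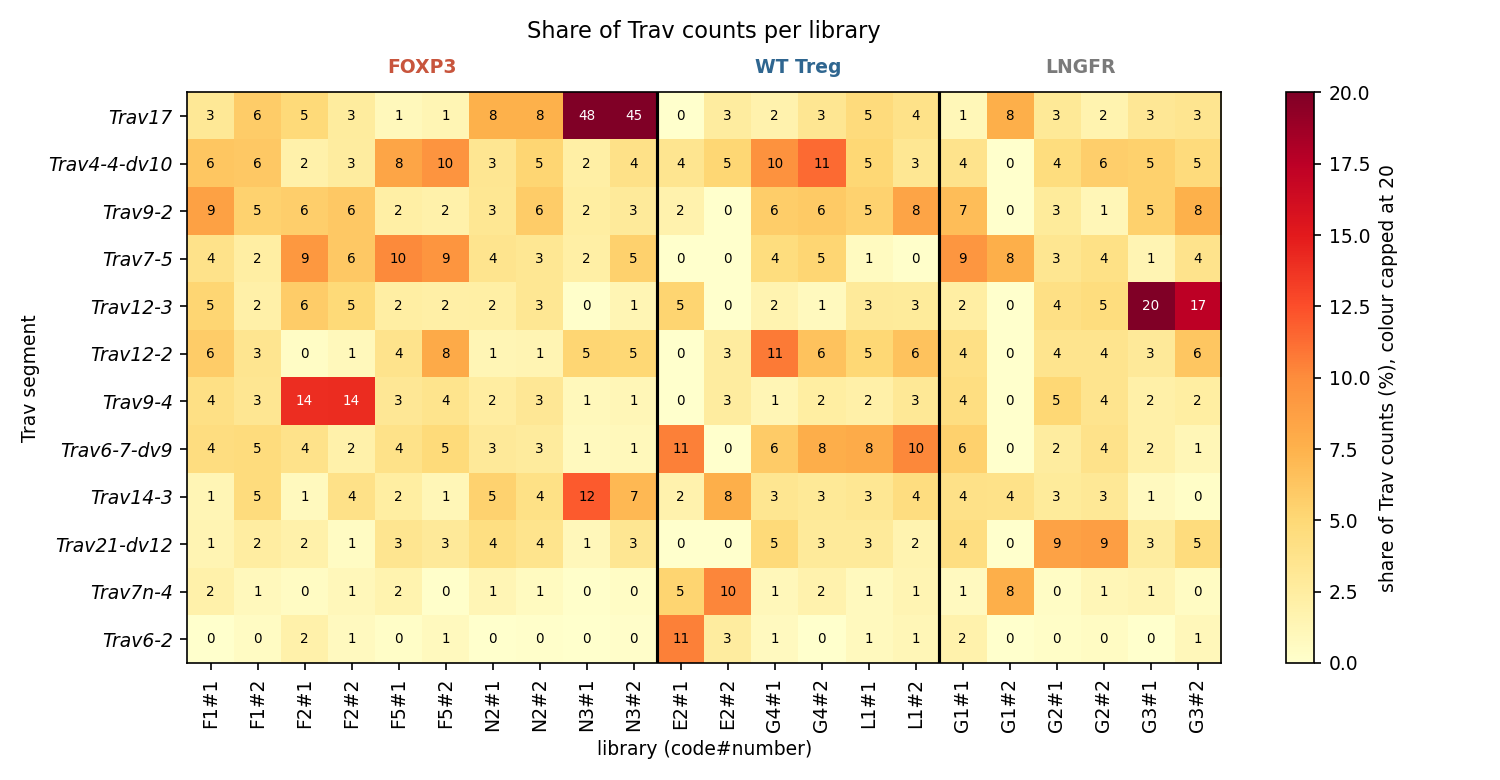
Share of each library's Trav counts, in percent, for segments averaging at least 5% in a group or peaking in a code; columns are libraries (FOXP3, WT Treg, LNGFR), rows are segments, and colour is capped at 20%. Trav17 in both N3 libraries (48 and 45), Trav12-3 in both G3 libraries (20 and 17) and Trav9-4 in both F2 libraries (14 and 14) stand out.

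By segment, 9 members averaged at least 5% in 1 group or more. In FOXP3 these were Trav17 (12.6% ± 19.0, SD, n = 5), Trav7-5 (5.59% ± 3.0) and Trav9-4 (5.02% ± 5.14). In WT Treg (n = 3) they were Trav6-7-dv9 (7.39% ± 1.47), Trav4-4-dv10 (6.29% ± 3.71) and Trav12-2 (5.09% ± 3.76). In LNGFR (n = 3) they were Trav12-3 (8.49% ± 9.12), Trav21-dv12 (5.46% ± 2.77), Trav7-5 (5.18% ± 3.61) and Trav9-2 (5.10% ± 2.51). The SD was above the mean for Trav17, Trav9-4 and Trav12-3, each of which peaked in 1 code, and below it for the others, Trav21-dv12 with its peak in G2 among them. Trav3-3 tied with Trav9-2 at 110 counts as the most used segment of the first library of F1, and averaged 4.87% ± 2.60 in FOXP3, 3.75% ± 0.574 in WT Treg and 4.49% ± 0.759 in LNGFR. Trav4-1, a pseudogene with 6 counts in all, led the second library of G1 with 3 of its 26 Trav counts.

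Trav6-7-dv9 held 4.47%, 2.87%, 4.19%, 2.77% and 0.888% in F1, F2, F5, N2 and N3, then 6.25%, 6.88% and 9.05% in WT Treg codes E2, G4 and L1, and 5.37%, 2.96% and 1.63% in LNGFR codes G1, G2 and G3. Its share was higher in each WT Treg code than in any other, with 6 counts behind the value of E2, all in its first library. In CPM the groups overlapped, with 7.81, 13.1 and 17.6 in E2, G4 and L1, against 15.0 in G1 and 10.8 in F1. The CPM of Trav6-7-dv9 averaged 12.9 ± 4.92 in WT Treg and 7.90 ± 6.22 in LNGFR, with a log2 fold change of 0.80 ± 0.61 (edgeR adjusted p = 0.560). For FOXP3 against WT Treg the averages were 6.39 ± 3.26 and 12.9 ± 4.92 CPM, with a log2 fold change of -1.06 ± 0.53 (adjusted p = 0.348). Without codes E2, G1 and N3 the difference between WT Treg and LNGFR was 1.83 (adjusted p = 0.0232), on 2 codes a group. That fit leaves out G1, the LNGFR code with the highest CPM of this segment.

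Families gave a like picture. Family 7 averaged 13.3% ± 4.74 in FOXP3, 10.2% ± 5.38 in WT Treg and 11.6% ± 4.11 in LNGFR. Family 9 averaged 12.0% ± 6.68, with 22.7% in F2, against 9.46% ± 3.78 in WT Treg and 11.2% ± 2.21 in LNGFR. Family 14 averaged 10.0% ± 3.15 in FOXP3, 11.9% ± 1.61 in WT Treg and 10.5% ± 4.14 in LNGFR. These 3 families overlapped between all groups. Family 6 averaged 9.61% ± 3.95 in FOXP3, 17.0% ± 6.64 in WT Treg and 8.33% ± 2.74 in LNGFR, and its highest code was E2, with 24.0% of 96 counts. Family 12 averaged 7.92% ± 2.39 in FOXP3, 8.36% ± 3.91 in WT Treg and 13.4% ± 9.57 in LNGFR, where G3 stood at 24.4%. Family 13 held 4.61%, 6.81%, 4.57%, 6.75% and 2.71% in F1, F2, F5, N2 and N3, then 8.33%, 12.8% and 6.96% in E2, G4 and L1, and 5.13%, 9.91% and 7.73% in G1, G2 and G3. Of the 11 families with at least 5% in a group, it was the one whose FOXP3 and WT Treg codes did not overlap, and F2 (6.81%) and L1 (6.96%) nearly met. Families 3, 4, 8, 17 and 21, the other 5 of the 11, overlapped between groups. The 10 segments with a delta name held 12.4% ± 4.41 of Trav counts in FOXP3, 19.8% ± 4.18 in WT Treg and 16.1% ± 4.12 in LNGFR, and overlapped.

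Of the 130 members, 48 passed the filter on low counts and entered the fit over all 15462 tested genes, in which a call is an adjusted p under 0.05. For FOXP3 against LNGFR, edgeR's quasi-likelihood test called 0 of the 48, against 0.543% of all genes tested. An unadjusted p under 0.05 was found for 5 members, or 10.4%, against 10.3% of all genes. DESeq2 called 1 (Trav8-2), against 2.61% of all genes, and the smallest edgeR adjusted p was 0.160. Members had a median log2 fold change of -0.08, against -0.02 over all genes, and 22 of 48 were above 0. The codes of FOXP3 and LNGFR did not overlap in CPM for 2 of the 48 members, Trav8-2 and Trav16, against 9.02% of all genes.

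Trav8-2, annotated as a pseudogene, stood at 0, 0.552, 0.426, 0.821 and 0.215 CPM in F1, F2, F5, N2 and N3, against 2.99, 4.27 and 3.08 CPM in LNGFR codes G1, G2 and G3. WT Treg codes E2, G4 and L1 had 3.91, 0.959 and 0.658 CPM, where the E2 value rests on 3 counts. All FOXP3 codes were below all LNGFR codes. The log2 fold change was -3.03 ± 0.85 (edgeR adjusted p = 0.160). It was past the threshold without the 3 libraries of low depth (-3.11, adjusted p = 0.0440), without codes E2, G1 and N3 and in DESeq2. It was past it too with the 22 libraries as replicates, a fit that counts each code 2 times and so understates the error.
Trav16 stood at 1.74, 1.29, 0.640, 1.13 and 0.969 CPM in the FOXP3 codes in the same order, against 2.33, 3.16 and 3.91 CPM in G1, G2 and G3. Again all FOXP3 codes were lower, with a log2 fold change of -1.44 ± 0.67 (adjusted p = 0.483).

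For WT Treg against LNGFR, 0 of 48 members were called by edgeR, against 1.33% of all genes. An unadjusted p under 0.05 was found for 5 (10.4%, against 14.8% of all genes), and DESeq2 called 0, against 4.86%. The smallest adjusted p was 0.230. The median log2 fold change was -0.20, against 0.08 over all genes, and 20 of 48 were above 0. Codes did not overlap for 5 members, all lower in WT Treg, against 16.6% of all genes. The 5 were Trav12-3, Trav19, Trav5-4, Trav6-5 and Trav7-3. For Trav5-4, Trav6-5 and Trav7-3, code E2 was at 0 counts, where 3.13% of its Trav counts could go unseen. The E2 values of the other 2 rest on few counts as well, 3 for Trav12-3, all in the first library, and 1 in each library for Trav19. Trav12-3 stood at 3.91, 2.24 and 5.53 CPM in E2, G4 and L1, against 6.32, 7.91 and 37.2 CPM in G1, G2 and G3. Its log2 fold change of -2.15 ± 0.76 (adjusted p = 0.230) was -0.83 without G3 (adjusted p = 0.703).
Trav5-4 stood at 0, 0.959 and 1.84 CPM in E2, G4 and L1, against 7.31, 6.01 and 2.96 CPM in G1, G2 and G3. Every WT Treg code was lower, with a log2 fold change of -2.16 ± 0.78 (adjusted p = 0.242). Trav19 averaged 1.52 ± 0.998 CPM in WT Treg and 4.15 ± 1.30 CPM in LNGFR (adjusted p = 0.289), and Trav7-3 averaged 0.229 ± 0.270 and 1.98 ± 1.31 CPM in the same groups (adjusted p = 0.332).

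For FOXP3 against WT Treg, edgeR called 0 of 48 members, against 0.259% of all genes. An unadjusted p under 0.05 was found for 4 (8.33%, against 16.5% of all genes), and DESeq2 called 1 (Trav6-5), against 7.19%. The smallest edgeR adjusted p was 0.112. The median log2 fold change was 0.22, against 0.01 over all genes, and 27 of 48 were above 0. Codes did not overlap for 3 members, against 12.4% of all genes, namely Trav5-4 and Trav6-5, higher in FOXP3, and Trav10n, lower. Trav6-5 had 131 counts over FOXP3 and 3 over WT Treg, a ratio of counts per 1e6 pooled over codes of 13.4 (95% exact interval 4.49 to 65.8, counting error only). It stood at 3.25, 4.79, 0.746, 4.21 and 0.323 CPM in F1, F2, F5, N2 and N3, against 0, 0.160 and 0.263 CPM in E2, G4 and L1. N3 was close to the WT Treg codes and the other FOXP3 codes spread over a wide range (edgeR adjusted p = 0.112).
For Trav6-5 in WT Treg against LNGFR, 3 counts stood against 26, a ratio of 0.137 (95% exact interval 0.0266 to 0.447; adjusted p = 0.273). Trav5-4 averaged 5.16 ± 3.35 CPM in FOXP3 and 0.934 ± 0.922 CPM in WT Treg, and its log2 fold change was 2.10 ± 0.73 (adjusted p = 0.161). Trav10n averaged 0.558 ± 0.325 CPM in FOXP3 and 2.50 ± 1.83 CPM in WT Treg, and its log2 fold change was -2.23 ± 1.11 (adjusted p = 0.345), with 1 count in E2. The 3 comparisons share samples, so these differences are not independent of each other.

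**Figure D4:**
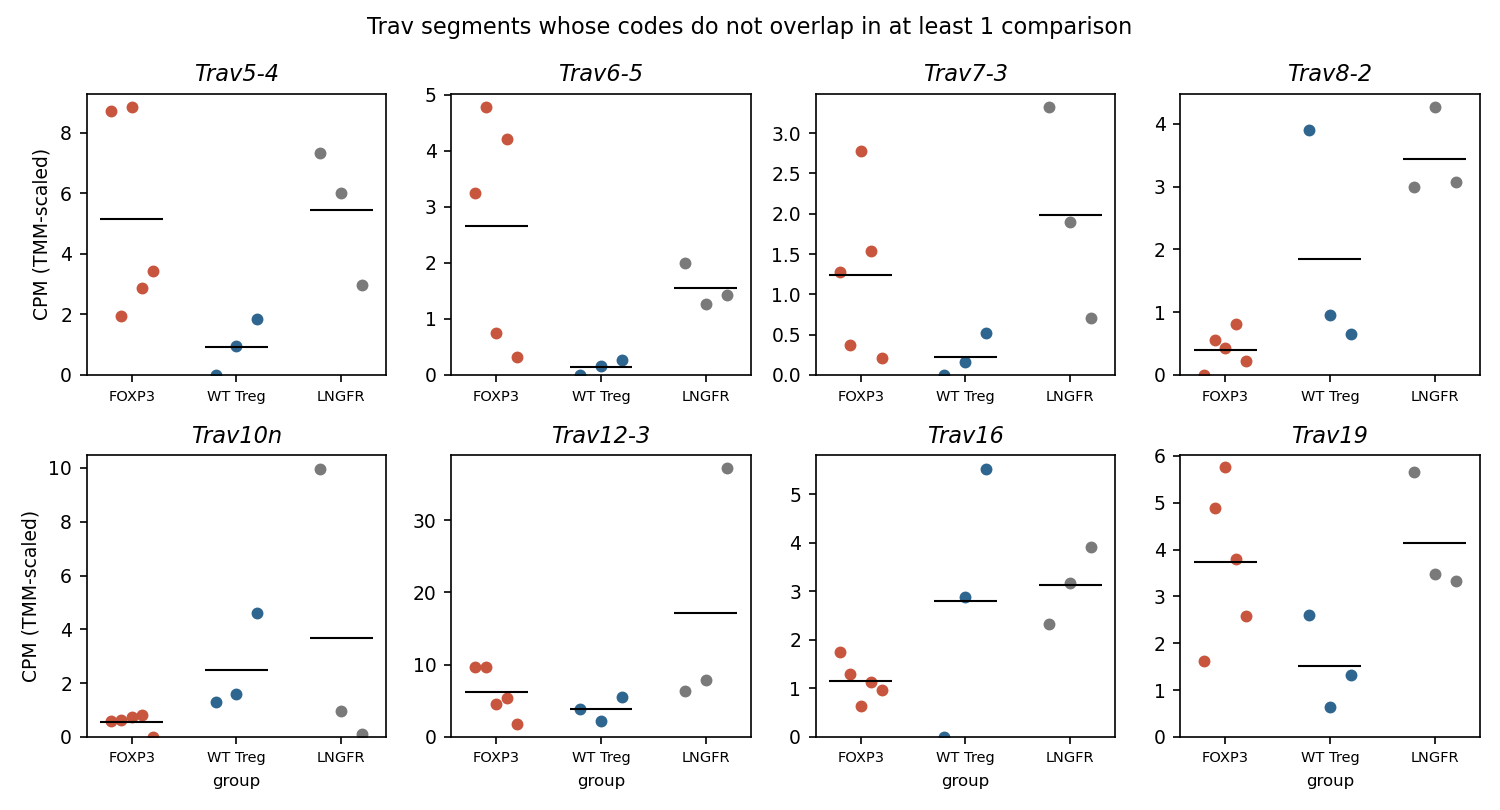
CPM of 8 Trav segments whose codes did not overlap in at least 1 of the 3 comparisons; points are codes, lines are group means, and each panel has its own linear scale from 0. For Trav8-2 and Trav16 all FOXP3 codes lie below all LNGFR codes, and Trav12-3 in LNGFR rests on 1 high code (37.2 CPM).

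Usage was most alike between the 2 libraries of a code. The overlap of 2 libraries was taken as the sum over segments of the smaller of their 2 shares. Among the 19 libraries of higher depth, the 2 libraries of a code overlapped by 74.3% to 82.4% (median 79.0%, 9 pairs). Libraries of different codes in the same group overlapped by 31.4% to 71.0% (median 57.0%, 52 pairs), and libraries of different groups by 32.9% to 69.1% (median 58.8%, 110 pairs). By this measure the lowest pair of the same code was above the highest pair of different codes, while pairs within a group and between groups covered the same range. For 18 of 18 such libraries whose partner was also of higher depth, the library with the most similar usage was the other one of its code, and with the 3 shallow libraries included for 18 of 22. By Spearman correlation of the shares it was the partner for 14 of the 18, and pairs were less separated, at 0.61 to 0.89 within a code and up to 0.80 between groups. With families in place of segments it was the partner for 16 of the 18, and pairs within a code (80.9% to 91.3%) overlapped those between groups (up to 86.5%).
Without N3, pairs of different codes in a group had a median of 61.0% and pairs of different groups 60.4%. Pairs share libraries and are not independent, so these are descriptions. Within a group, different FOXP3 codes overlapped by a median of 53.4% (58.6% without N3), WT Treg codes G4 and L1 by 66.6% and LNGFR codes by 61.7%.

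The 2 libraries of a code were not identical. A chi-square of their Trav counts was 1.48 to 4.85 per degree of freedom in the 9 codes deep enough for it, lowest in G4, and over all genes it was 3.0 to 10.8 in the same codes. The share of Trav14-3 in F2, for example, was 0.794% in the first library and 3.92% in the second, and that of Trav5-4 was 0.298% and 1.90%. The libraries held no molecular identifiers, and the part of PCR in these differences was not tested.

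**Figure D5:**
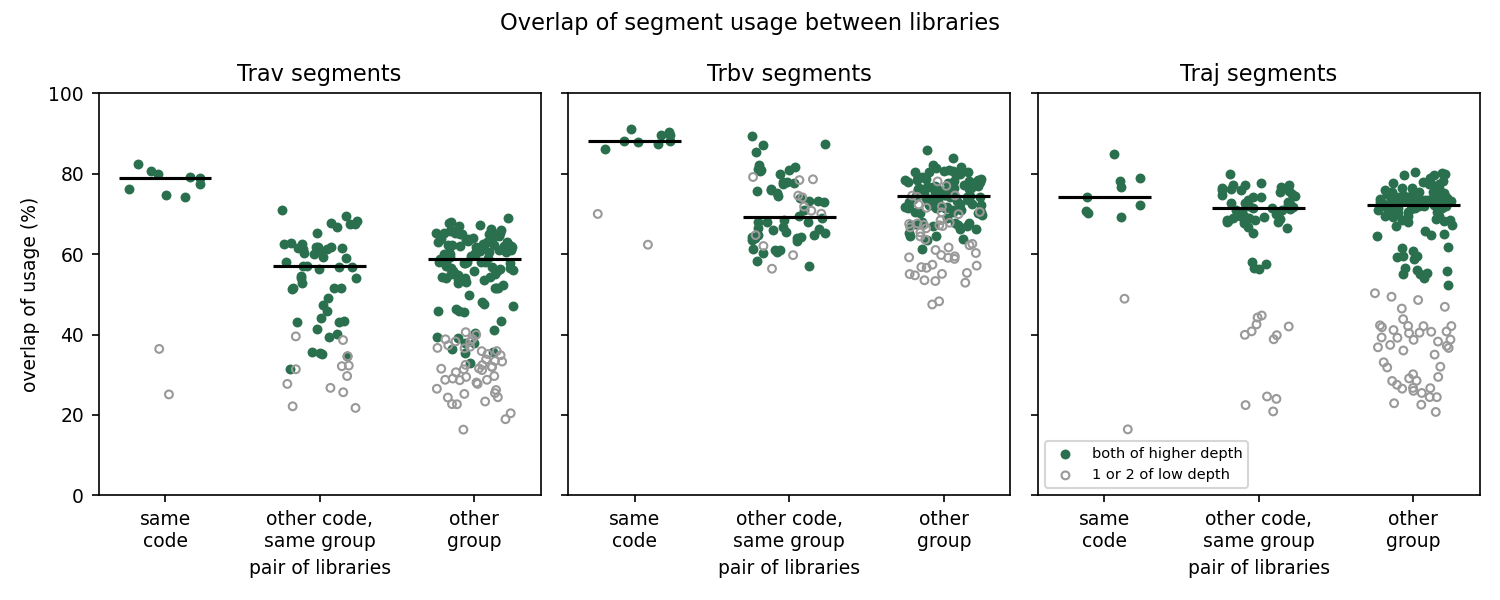
Overlap of usage between pairs of libraries, in percent, for Trav, Trbv and Traj segments; filled points are pairs of higher depth, open points include 1 or 2 of the 3 low-depth libraries, and bars are medians of the filled points. For Trav the same-code pairs (median 79.0%) lie above all other filled points.

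The other receptor segments were read the same way. For Trbv, the overlap was 86.1% to 91.1% within a code (median 88.3%), with medians of 69.2% between codes of a group and 74.5% between groups, and the nearest library was the partner for 18 of 18. For Traj, whose counts were fewer and whose segments are short, the medians were 74.3%, 71.5% and 72.2%, and the nearest library was the partner for 3 of 18.

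Among receptor genes that every alpha beta T cell uses, Cd3e, a CD3 subunit, stood at 452 to 740 counts per 1e6 of a code's total in FOXP3, 202 in E2 and 788 to 833 in G4 and L1, and 595 to 701 in LNGFR. None of the listed receptor genes tested (Trac, Trbc1, Trbc2, Trdc, Trgc1, Trgc2, Traj18, Traj33, Cd247, Cd3d, Cd3e, Cd3g, Cd4 and Cd8b1) was called by edgeR in any comparison. Their lowest adjusted p was that of Cd8b1 in FOXP3 against WT Treg (log2 fold change -1.80 ± 0.42, adjusted p = 0.0842). The gamma delta T-cell list (Trdc, Trgc1, Trgc2, Trgc4 and Sox13) summed to 1.06 to 5.27 counts per 1e6 in FOXP3, to 25.1, 3.03 and 10.3 in E2, G4 and L1, and to 27.7, 6.31 and 9.52 in G1, G2 and G3. The FOXP3 codes were thus below the LNGFR codes. Trdc, the delta constant gene, stood at 0 to 2.95 in FOXP3, 0 to 5.50 in WT Treg and 1.90 to 2.25 in LNGFR. Of the gamma constant genes, Trgc1 reached 13.5 in G1 and Trgc2 12.1 in E2. Trgc2 was lower in every FOXP3 code than in any LNGFR code (log2 fold change -3.24 ± 1.12, edgeR adjusted p = 0.284). In this comparison 9.02% of all genes tested did not overlap in either direction. Trgc1 (0.229 to 4.91 in FOXP3, 2.90 to 13.5 in LNGFR), Trgc4 (0 to 0.688 and 0 to 2.25) and Trdc overlapped. The part of such cells in the usage of the segments with a delta name was not tested. The NKT-cell alpha chain pairs Trav11 with Traj18 in mice, and Trav11 had 0 counts, Trav11d 1 and Trav11n 12, while Traj18 had 5 to 52 counts a code. Neither Trav11 nor Trav11d has a stretch of 38 bases that no other gene shares, so their 0 and 1 counts do not show that the segment was unused. In the same NKT-cell list, Zbtb16 had 52 counts in N3 and 0 to 6 in the other codes. Klrb1c had 12 counts in N3 and 1 to 29 elsewhere, highest in G3. The list (Trav11, Traj18, Zbtb16 and Klrb1c) summed to 4.46 to 10.4 counts per 1e6 in FOXP3, highest in N3. It summed to 4.37 to 12.1 in WT Treg and 6.99 to 8.63 in LNGFR. The part of such cells in the usage of N3 was not tested. Trav1, which pairs with Traj33 in mucosal-associated invariant T cells, is unique throughout and had 49 counts, at 0.186% ± 0.153 of Trav counts in FOXP3, 0.718% ± 0.479 in WT Treg and 0.341% ± 0.332 in LNGFR.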

How the data were processed

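Members, gene lists and alternatives were chosen with earlier results of these data known. The deposited table holds raw counts per gene symbol that the authors did not normalize, 1 column per library, as far as the whole-number values show. The tools named are STAR 2.7.3a, Subread 2.0.0 and its featureCounts, and the build is mm10 (GRCm38), per the submitters' processing notes. Per the labels' protocols, polyadenylated RNA of 1000 sorted cells was amplified by 18 cycles of PCR after Tn5 fragmentation and sequenced in pairs of 38 bp reads. There are no molecular identifiers, so Wilson and exact intervals and the floor of 3 counts cover counting error only. Not given in the sources used here are the gene annotation, the strand setting and how reads with several matches were counted. The deposited counts of nearly identical segments may therefore hold each other's reads.

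Groups and codes were taken from the titles, and the 2 libraries of a code were summed. Shares are of a code's or library's Trav counts. The effective number of segments is the exponential of the Shannon entropy. Tests across genes used edgeR 4.0.16 under R 4.3.3, with its robust quasi-likelihood test, TMM and filterByExpr, with all 3 groups in 1 fit, Benjamini-Hochberg adjusted over 15462 genes, threshold 0.05. DESeq2 1.42.0 was an alternative. CPM refer to 1e6 counts of a code after TMM scaling, and values per 1e6 of a code's total are not TMM-scaled. The SE is the absolute log2 fold change divided by the square root of F. The fit was tested on simulated data. Evenness, dominance and overlap were given with no p. Uniqueness was counted over all 38-base stretches of a segment's GENCODE M21 transcripts, against both strands of the transcripts of all other genes. Usage was computed with Python 3.11.15 and scipy 1.17.1.

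Named segments were those with a mean share of at least 5% in a group, the most used segment of a library, any called segment, and Trav11, Trav11d and Trav1 with Traj18 and Traj33. Families with a mean share of at least 5% in a group were named too. Segments peaking in 1 code, those whose codes did not overlap, and Trav11n, Trav12d-3, Trav12n-3 and Trav9n-4 were chosen after their values were seen. Of the listed receptor genes, Trgc4, Cd8a, Rag1, Rag2, Dntt and Ptcra did not enter the fit.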

Additional observations from a re-analysis of the deposited data

Results flagged for a closer look

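In a test for a code that stands apart from the other 4 FOXP3 codes (the gap to the nearest code over the whole range, above Dixon's 95% critical value for 5 codes), 25 measures were read and 4 stood out. Chance gives about 1 in 20 for measures chosen without regard to their values, a rate that does not apply here, since most of the 25 are segments named for a high share in a library or group. The share of the most used segment was 46.3% in N3, and the next FOXP3 code, F2, had 14.0%. Trav17 in N3 is the same value, 46.3%, and the next code, N2, had 7.54%. Trav9-4 held 14.0% of Trav counts in F2, and the next FOXP3 code, F1, had 3.80%. Trav4-1, a pseudogene, held 0.0537% in F5, which is 1 count, and 0 in the other 4 FOXP3 codes, so that it stood out by construction. The groups of 3 codes are too small for this test.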

How the results depend on the processing

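In the 3 comparisons edgeR called 0 members. For FOXP3 against LNGFR the count was 1 in each of 5 other settings: DESeq2, no filter on low counts, the 22 libraries as replicates, without the 3 libraries of low depth, and without codes E2, G1 and N3. For WT Treg against LNGFR it was 1 with no filter and 1 without codes E2, G1 and N3. For FOXP3 against WT Treg it was 1 in DESeq2, 5 with no filter and 2 without codes E2, G1 and N3. Leaving out 1 code at a time gave 0 to 1 called there, the 1 being Trav7-5 without WT Treg code G4. Over all 20 fits of each comparison, the smallest adjusted p among members ran from 4.23e-06 to 0.565, from 0.00872 to 0.436 and from 4.99e-06 to 0.22, in the same order of comparisons. Calls over all genes moved as well over these fits, at 15 to 1565, 37 to 1125 and 4 to 3615 genes. DESeq2 called 2.61%, 4.86% and 7.19% of all genes in the same order. For the other settings the share of all genes called is not set beside the members, and with no filter another set of genes was tested. The counts of members called are therefore not read as a result about the members. The 14 log2 fold changes of segments recomputed in the settings (among them those of Trav8-2, Trav6-5, Trav17 and Trav6-7-dv9) kept their sign in all settings that gave a value. All but those of Trav17 and Trav6-7-dv9 were chosen because the codes of the 2 groups did not overlap. That choice left little room for a change of sign, so the kept signs are not read as support. Without codes E2, G1 and N3 the WT Treg and LNGFR groups hold 2 codes each.

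Evenness was lower by construction when copies were added together, at 25.4 segments in WT Treg and 29.0 in LNGFR, and when families replaced segments, at 11.2 in FOXP3, 11.9 in WT Treg and 13.0 in LNGFR. The unbiased Simpson number was 21.7 in FOXP3, 29.1 in WT Treg (25.1 without E2) and 25.8 in LNGFR. The mean of single libraries in WT Treg was 30.0, which takes in the shallow E2 libraries at 23.4 and 22.3 segments. Dominance in WT Treg was 17.7% by family and 10.8% per unique stretch. By family, overlap had a median of 70.3% between codes of a group and 70.8% between groups, against 53.4% and 55.0% by segment over all 22 libraries. Single codes moved group means: without N3, FOXP3 dominance was 9.70% in place of 17.0%. No paired analysis was possible because the groups share no code. Depth limits E2 and the second library of G1 most. By counting error alone, a segment at 0 counts there may hold up to 3.13% of E2 and up to 11.5% of that library.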
